A study of Oryza sativa with 12 samples.

Results

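Among the rice genes measured here, 79 stood at 5 FPKM or more (fragments per kilobase, scaled to library depth) in both OsC3'H1 knockout lines and under 0.5 FPKM in both wild-type groups. They are 79 of the 36019 loci that hold 1 annotated gene, and are called the knockout-high loci here. They were chosen by those values, so their height in the knockouts and their low level in wild type describe the choice and are no result. The working name for the set, loci induced only in knockouts, goes further than the deposited tests, since 40 of its 78 tested loci were called higher in both lines over 12-day wild type at a deposited q under 0.05. Of all tested loci holding 1 gene 18.8% were, and nothing is read from that difference, because the choice used these contrasts.

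The 4 groups were whole aerial parts of Nipponbare rice, each with 3 biological replicates. Knockout lines b and a, of the T3 generation, were taken at 12 days, and wild type at 12 days and at 5 days. The labels do not say how the knockouts were made. Plants grew in closed sterile boxes on agar medium. On day 7 wild-type plants went into a hypotonic tap-water solution, a transfer the labels do not mention for the knockouts, so genotype and growth medium cannot be told apart in any value set against 12-day wild type. Age differs as well in those set against 5-day wild type. Titles and source names give the line letters opposite ways. Titles were followed, and if they are the ones in error, b and a change places throughout.

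OsC3'H1 encodes p-coumaroyl ester 3-hydroxylase, a cytochrome P450 of the phenylpropanoid pathway that adds a hydroxyl group on the way to the G and S units of lignin, the phenolic polymer of plant secondary walls. Hydroxycinnamoyl transferases make the esters it acts on, and laccases oxidise the finished monolignols in the wall. Rice seedlings also hold many genes that are low or silent in unstressed leaves and are transcribed more on infection, wounding or nutrient shortage. Among them are genes for diterpenoid phytoalexins (antimicrobial compounds made on attack) and some of those for jasmonate synthesis and for nicotianamine (a metal chelator). Whether any such response took part here was not tested.

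The targeted gene, Os05g0494000 on chromosome 5, stood at 12.9 FPKM in line b, 10.7 in line a, 53.1 in 12-day wild type and 65.7 in 5-day wild type, so its transcripts were lower but still present in both lines. Each value is the authors' single FPKM per group, with no value per replicate and no depth, so no SD can be given and a value of 0 carries no floor. The leaf genes RCA (Rubisco activase) and CAB2R (an antenna protein) marked the tissue: RCA had 806, 1046, 9116 and 4706 FPKM, and CAB2R 29.9, 43.0, 273 and 840, in line b, line a, 12-day and 5-day wild type. Both were far lower in the knockouts. The root gene LSI1 (a silicon channel) had 6.99, 6.56, 2.31 and 10.7 FPKM in the same order of groups and LSI2 (a silicon exporter) was listed at 0 throughout, while the meristem genes OSH1 and OSH15 lay between 4.64 and 5.91 FPKM in the lines, at 3.18 and 2.39 in 12-day wild type and at 0 in 5-day wild type. Their part in the values of the knockout-high loci was not tested, and in whole aerial parts a change in cell numbers and a change in RNA per cell cannot be told apart.

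Most of the knockout-high loci lay towards the lower end of the loci at 5 FPKM or more in both lines. The median over the 79 was 9.49 FPKM in line b (5.01 to 123), 10.7 in line a (5.00 to 160), 0.0890 in 12-day wild type (0 to 0.498) and 0 in 5-day wild type (0 to 0.475). In both lines 32 of the loci reached 10 FPKM, 14 reached 20, 5 reached 50 and 1 reached 100, and 47 stayed under 10 in at least 1 line. The median member ranked at percentile 53.5 among the loci above 0 in line b and 56.1 in line a. The 5 FPKM floor of the choice sets part of this rank. Of the 14703 loci holding 1 gene at that floor and tested between the lines, 7101 had 20 FPKM or more in the lower line and 3562 had 5 to 10. Among the 78 tested members those numbers were 14 and 47. Wild type listed 32 of the 79 at 0 at both ages, 6 at 0 at 12 days alone, 17 at 0 at 5 days alone and 24 above 0 at both. Of those 24, 16 were higher and 8 lower at 12 days than at 5 days, and the authors' deposited table tests none of the 79 between the wild-type ages.

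**Figure D1:**
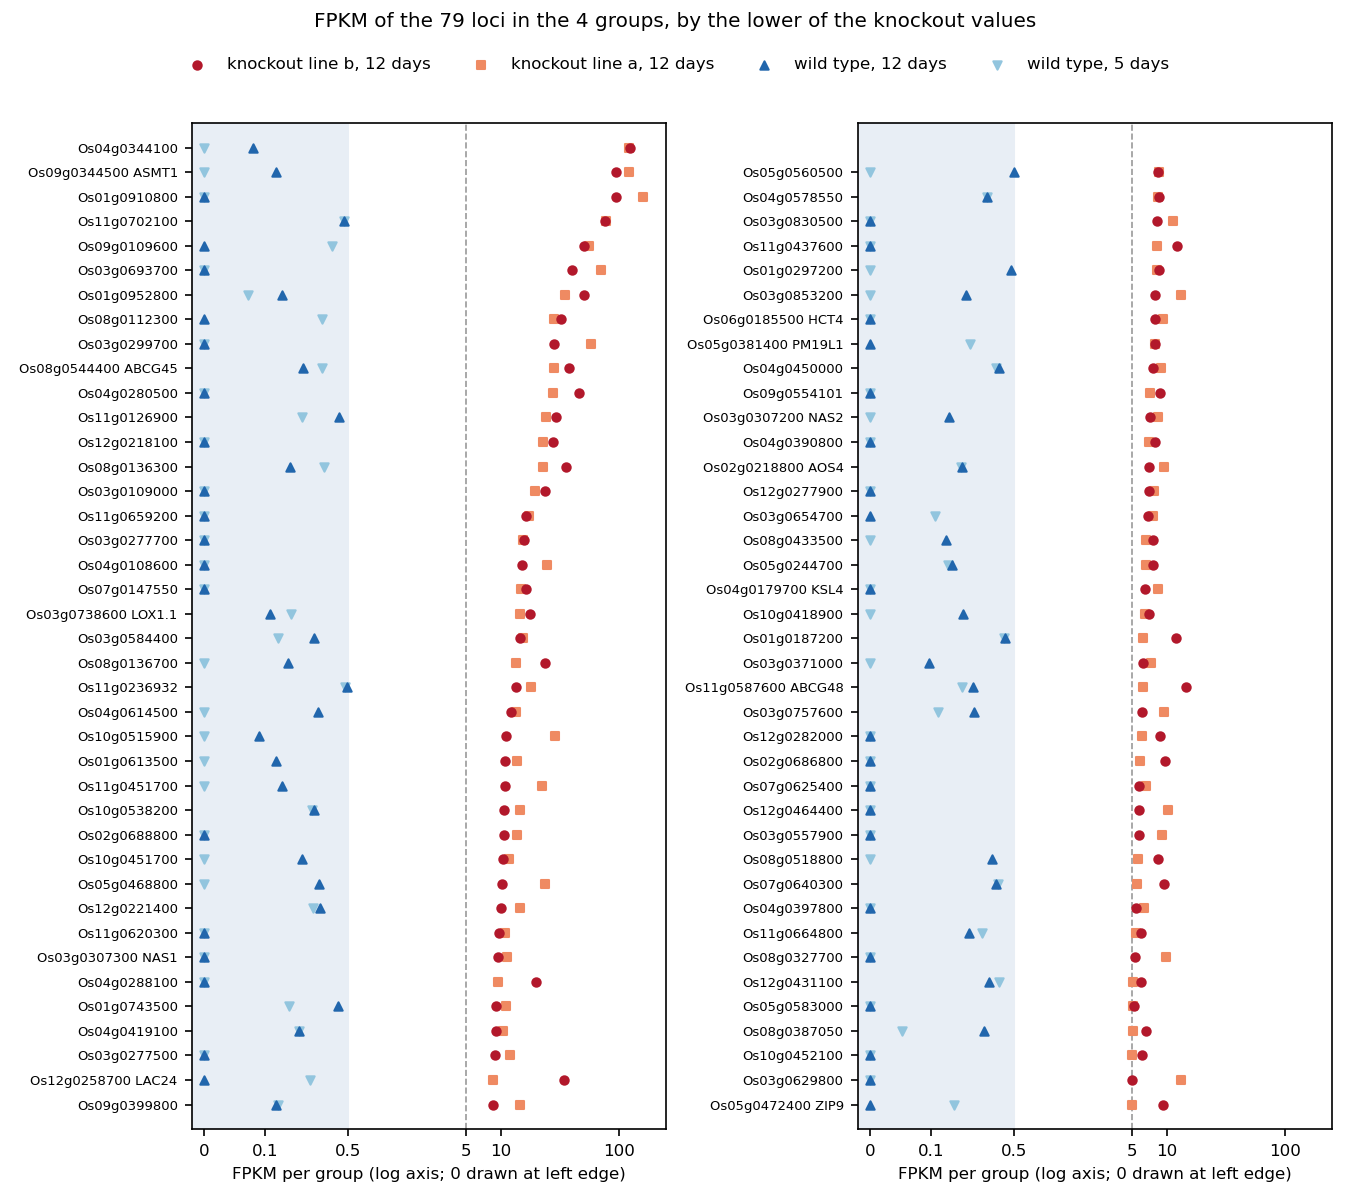
FPKM of each of the 79 knockout-high loci (rows, ordered by the lower of the knockout values) in the 4 groups, on a log axis with 0 drawn at the left edge. The shaded band is the range under 0.5 FPKM that wild type had to meet and the dashed line the 5 FPKM that both lines had to meet; Os04g0344100 leads at 123 and 121 FPKM, and 32 loci have both wild-type triangles at 0.

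The limits of the choice cut through a run of values. Just inside the knockout limit lay ZIP9 (9.15 FPKM in line b and 5.00 in line a), Os03g0629800 (5.01 and 13.1) and Os10g0452100 (6.08 and 5.08). Just outside it lay Os06g0110200 (4.95 and 7.23), CPS4 (9.17 and 4.94) and Os11g0181200 (4.91 and 6.70), all 3 at 0 in wild type. At the wild-type limit, Os05g0560500 (0.498 at 12 days), Os11g0236932 (0.491 at 12 days) and Os01g0297200 (0.475 at 12 days) were inside, and Os02g0768000 (0.503 at 5 days), Os09g0325700 (0.506 at 12 days) and Os01g0585200 (0.508 at 12 days) outside. Another 32 loci had 4 to 5 FPKM in the lower line, and another 81 had 0.5 to 1 FPKM in the higher wild type.

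The same limits were put to every other division of the 4 groups. Both wild types high with both lines low held 2 loci. Line b with 12-day wild type held 1, line b with 5-day wild type 0, line a with 12-day wild type 0 and line a with 5-day wild type 1. Single groups held more, with 6 loci for line b alone, 10 for line a alone, 11 for 12-day wild type alone and 6 for 5-day wild type alone. Both lines with 12-day wild type held 14 loci and both lines with 5-day wild type 1. The 79 were therefore the fullest of the 14 divisions under these limits, which is a count and carries no test.

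**Figure D2:**
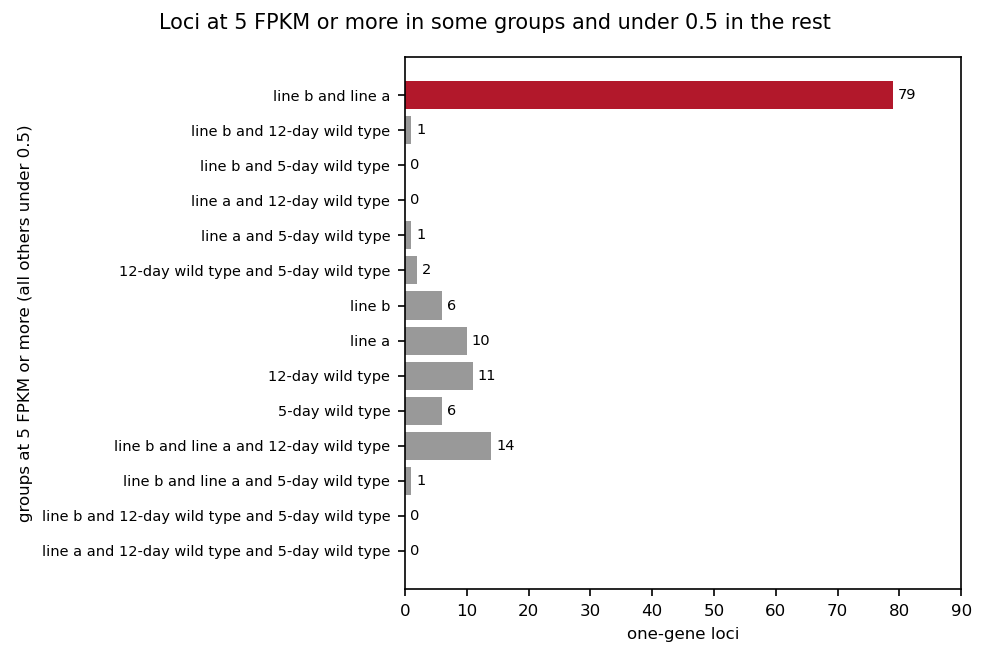
Number of loci holding 1 gene (bars, from 0) that stood at 5 FPKM or more in the named groups and under 0.5 FPKM in all others, for 14 divisions of the 4 groups. The bar for both knockout lines reaches 79, against 14 for both lines with 12-day wild type and 2 for both wild types.

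A symbol could be matched to the RefSeq annotation for 12 of the 79 members, and 2 of these 12 are enzymes of metal chelation. NAS1 (Os03g0307300, chromosome 3, 10929507 to 10930895 on IRGSP-1.0) encodes nicotianamine synthase, which makes the metal chelator nicotianamine, the precursor of the iron-binding phytosiderophores of grasses. NAS1 had 9.39 FPKM in line b and 11.2 in line a and was listed at 0 in both wild types. Its neighbour NAS2 (Os03g0307200, 10926469 to 10927729) had 7.15 FPKM in line b, 8.33 in line a, 0.140 in 12-day wild type and 0 in 5-day wild type. These are close copies, so reads may have been split between them, and their separate values are uncertain.

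Of the other listed genes of iron acquisition, NAS3, NAAT1 and IRO3 were above the level of NAS1 in the lines and above 0 in wild type. NAS3, a further nicotianamine synthase, ran differently from its relatives, at 20.1 FPKM in line b, 11.8 in line a, 15.1 in 12-day wild type and 34.8 in 5-day wild type. NAAT1, the aminotransferase of the next step towards phytosiderophores, had 29.8, 24.8, 2.12 and 0.495 FPKM in that order of groups, and IRO3, a bHLH transcription factor of the iron response, 38.4, 31.7, 6.84 and 2.87. Symbols were written for 11 genes of iron acquisition and kept for 8. The symbol IRO2, written for the member Os01g0952800 (50.7 FPKM in line b and 34.5 in line a), was among those dropped. Of the 8 listed genes, 5 were tested, and the authors' deposited table called 3 higher and 0 lower in both lines over 12-day wild type (NAS1, NAAT1 and IRO3), where 18.8% of all tested loci holding 1 gene were higher and 21.6% lower. Those shares are the background of every such count of a gene list here. A count that holds members is a description only, since the choice used these contrasts. Over 5-day wild type 4 of the 5 were called higher in each line, the members NAS1 and NAS2 among them. NAS3 was called lower in both. Of all tested loci, 25.6% were called higher over 5-day wild type in line b and 24.7% in line a. The transporters IRT1, YSL2 and YSL15 were under 3 FPKM in every group and not tested.

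ZIP9 (Os05g0472400, chromosome 5, 23196134 to 23212914), a zinc uptake transporter of the ZIP family in rice, had 9.15 FPKM in line b, 5.00 in line a, 0 in 12-day wild type and 0.154 in 5-day wild type. Its listed relatives were all above 0 in wild type, and their levels in the lines lay on both sides of that of ZIP9. ZIP8 had 33.3, 31.5, 1.77 and 0.854 FPKM in line b, line a, 12-day and 5-day wild type, ZIP4 38.6, 31.7, 6.72 and 4.91, and ZIP10 58.3, 46.8, 11.8 and 14.0, whereas ZIP1 had 2.68, 3.12, 1.64 and 2.53. Of the 10 ZIP genes, 9 were tested, and 6 were called higher and 0 lower in both lines over 12-day wild type in the authors' deposited table (ZIP2, ZIP3, ZIP4, ZIP7, ZIP8 and ZIP10), against the background of 18.8% and 21.6%. ZIP9 itself was not called there (deposited q 0.110 in both lines), and its merged locus, the longest among the 79 at 16781 bases, also covers Os05g0472300 (17.99, 17.26, 13.54 and 16.04 FPKM).

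The members that act on lipids and terpenes were AOS4, LOX1.1 and KSL4. AOS4 (Os02g0218800, chromosome 2, 6637969 to 6639828) belongs to the CYP74 family of allene oxide synthases, which turn lipid hydroperoxides into precursors of jasmonate and related oxylipins. AOS4 had 7.02 FPKM in line b, 9.38 in line a, 0.181 in 12-day wild type and 0.178 in 5-day wild type. AOS1 stood at 21.86, 21.97, 11.79 and 11.4 FPKM in the same groups. AOS2 had 6.78 FPKM in line b, 3.42 in line a, 1.23 in 12-day wild type and 1.70 in 5-day wild type; in the authors' deposited table it was called higher in line b over both wild types and over line a (q 0.00509 for the last), and was not tested in line a over wild type. AOS3, which lies next to AOS4 and resembles it, stayed under 0.5 FPKM in every group. Of 4 listed genes 2 were tested in both lines over 12-day wild type, with AOS1 called higher and AOS4 not called in the authors' deposited table.

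LOX1.1 (Os03g0738600, chromosome 3, 30315456 to 30318959) encodes a lipoxygenase, the enzyme that makes the hydroperoxides used by allene oxide synthases. LOX1.1 had 17.6 FPKM in line b, 14.5 in line a, 0.110 in 12-day wild type and 0.165 in 5-day wild type. The 3 other listed lipoxygenases were between 0.698 and 3.996 FPKM in the lines and were not tested. All 3 thus lay under LOX1.1 in the knockouts.

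KSL4 (Os04g0179700, chromosome 4, 5428347 to 5434023) encodes the diterpene synthase that commits its substrate to the momilactones, the phytoalexins whose genes form a known cluster on that chromosome. KSL4 had 6.53 FPKM in line b and 8.39 in line a and was listed at 0 in both wild types. Its partners had higher values in line b than in line a. CPS4, the copalyl diphosphate synthase of the step before, had 9.17 and 4.94 FPKM in line b and line a, CYP99A2 7.94 and 4.85, CYP99A3 4.16 and 0.609, and MAS (momilactone A synthase) 4.04 and 1.92. The authors' deposited table called CPS4, CYP99A2 and CYP99A3 but not MAS higher in line b, CYP99A3 by the widest log2 ratio of these (2.77, q 0.0395), whereas KSL4 had the lower value there (log2 ratio −0.36, implied error 0.346) and was not called (deposited q 0.142). Of 11 listed diterpenoid genes, 4 were tested in both lines over 12-day wild type, and 3 were called higher (KSL4, CPS4 and KSL7) and 0 lower. KSL4 was chosen on this contrast, so its call describes the choice.

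**Figure D3:**
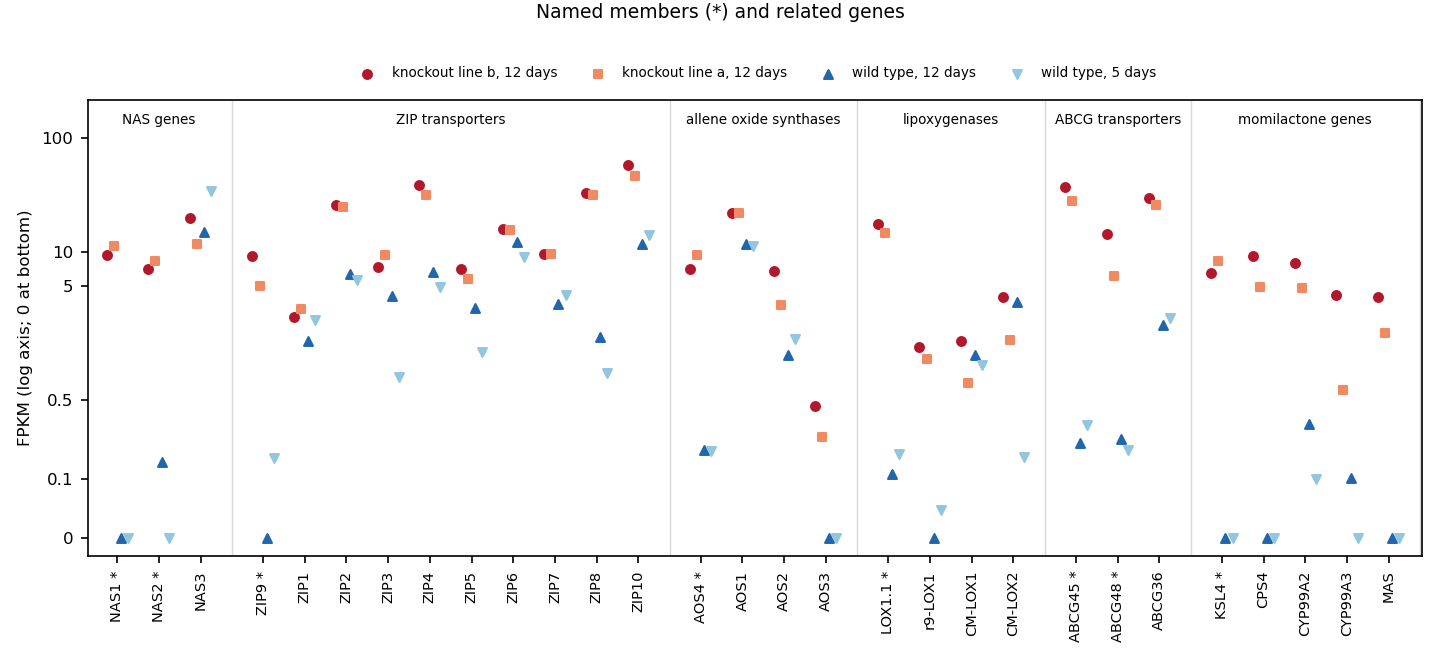
FPKM (log axis, 0 drawn at the bottom) of named knockout-high loci, marked with an asterisk, and of related genes in line b, line a, 12-day and 5-day wild type. NAS1, NAS2, ZIP9, AOS4, LOX1.1, ABCG45, ABCG48 and KSL4 have both wild-type triangles under 0.5 FPKM, while relatives such as NAS3, ZIP10 and AOS1 have wild-type values above 10 FPKM.

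Members tied to transport and to the cell wall included the named loci that differed most between the lines, LAC24 and ABCG48. ABCG45 (Os08g0544400, chromosome 8, 27267821 to 27277587) and ABCG48 (Os11g0587600, chromosome 11, 22272841 to 22282403) encode full-size ABCG transporters, membrane pumps of small molecules. ABCG45 had 37.6 FPKM in line b, 27.8 in line a, 0.209 in 12-day wild type and 0.300 in 5-day wild type. ABCG48 had 14.3, 6.20, 0.226 and 0.180 FPKM in those groups. Their relative ABCG36 was above 2 FPKM in wild type, at 29.6, 26.0, 2.30 and 2.62 FPKM, and was the 1 of these 3 transporters called higher in both lines over 12-day wild type in the authors' deposited table.

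LAC24 (Os12g0258700, chromosome 12, 8960777 to 8964016) encodes a laccase, a copper oxidase of the class that joins monolignols. LAC24 had 33.9 FPKM in line b, 8.58 in line a, 0 in 12-day wild type and 0.241 in 5-day wild type. HCT4 (Os06g0185500, chromosome 6, 4301515 to 4303137), named as a hydroxycinnamoyl transferase of the BAHD acyltransferase family, had 7.84 FPKM in line b, 9.25 in line a and 0 in both wild types. It was the 1 member on chromosome 6.

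The remaining named members were ASMT1 and PM19L1. ASMT1 (Os09g0344500, chromosome 9, 10740343 to 10741969) encodes an O-methyltransferase named for acetylserotonin, the last step to melatonin. ASMT1 had 94.9 FPKM in line b, 121 in line a, 0.123 in 12-day wild type and 0 in 5-day wild type, the highest named member. TDC2, a tryptophan decarboxylase at the head of the serotonin pathway, ran the other way, with 6.84, 9.77, 21.6 and 27.7 FPKM, and was called lower in both lines over 12-day wild type in the authors' deposited table. It was the 1 gene kept of 4 written for serotonin synthesis, so TDC1, TDC3 and T5H were not read. PM19L1 (Os05g0381400, chromosome 5, 18429433 to 18430290), a membrane protein of the AWPM-19 family, which is tied to abscisic acid and osmotic stress, had 7.90 FPKM in line b, 7.81 in line a, 0 in 12-day wild type and 0.211 in 5-day wild type.

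Most of the highest members, ASMT1 and ABCG45 apart, carry no symbol matched to RefSeq and are given by their identifiers. The symbols IRO2, Chib3H-h and NAC122, written for Os01g0952800, Os11g0702100 and Os11g0126900, were not matched and were dropped. Os04g0344100 (chromosome 4, 16349941 to 16354016) was the highest, with 123 FPKM in line b, 121 in line a, 0.0779 in 12-day wild type and 0 in 5-day wild type. Os01g0910800 (chromosome 1, 39678341 to 39683433) had 93.4 FPKM in line b, 160 in line a and 0 in both wild types. The same identifier, joined with Os01g0910900, names another entry of the same span with 564, 584, 1098 and 24.5 FPKM, so reads at this place were present in 12-day wild type, and the 0 holds for 1 entry of the table rather than for the place. Os11g0702100 (chromosome 11, 28758837 to 28760003) had 76.5 FPKM in line b, 77.8 in line a, 0.463 in 12-day wild type and 0.468 in 5-day wild type. Os09g0109600 (chromosome 9, 862654 to 863340) had 50.2, 55.2, 0 and 0.366 FPKM in the same groups. The lines were within 1.2-fold of each other at these loci, apart from Os01g0910800, where line b was 1.71-fold lower.

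The next members by level held both wide and narrow differences between the lines. Os03g0693700 (chromosome 3, 27779100 to 27780096) had 39.6 FPKM in line b and 70.0 in line a, and Os03g0299700 (chromosome 3, 10518913 to 10520192) 27.8 and 57.8, with both at 0 in wild type. Os01g0952800 (chromosome 1, 41971361 to 41978311) had 50.7 and 34.5 FPKM in line b and line a, with 0.139 in 12-day and 0.0714 in 5-day wild type, and Os04g0280500 (chromosome 4, 11894618 to 11898559) 45.4 and 27.8, with 0 in both. Lines b and a were closer at Os08g0112300 (32.0 and 28.1 FPKM), Os11g0126900 (29.3 and 24.0), Os12g0218100 (27.6 and 22.8) and Os03g0109000 (23.4 and 19.3). Wild type was listed at 0 at both ages for Os12g0218100 and Os03g0109000, at 0 and 0.301 FPKM at 12 and 5 days for Os08g0112300, and at 0.417 and 0.205 for Os11g0126900.

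Against wild type, the deposited calls are given as a description only, since those contrasts chose the members. Of the 78 tested, 40 (51.3%) were called higher than 12-day wild type in line b and 40 in line a at a deposited q under 0.05, where 22.2% and 21.3% of all tested loci were. Over 5-day wild type 52 (66.7%) were called in each line, where 25.6% and 24.7% of all tested loci were. The same numbers, 40 and 52, were called in both lines together, where 18.8% and 22.5% of tested loci holding 1 gene were, and 35 were called higher in all 4 comparisons. Being called went with being listed at 0: 33 of the 37 tested members at 0 in 12-day wild type were called, and 7 of the 41 above 0. For 38 of those 41 the authors' deposited table gives the same p in both lines, and the median error implied by its test statistic was 3.30 on the log2 scale in each line, so that these ratios are known only loosely. ASMT1, for instance, had a deposited log2 ratio of 9.59 over 12-day wild type in line b and was not called (q 0.357), while NAS1, at 9.39 FPKM and listed at 0 in wild type, was called.

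The choice set the same floor of 5 FPKM in each line and did not use the difference between them. Loci under that floor in 1 line were left out, so the loci at 5 FPKM or more in both lines are given as a background beside all tested loci. Of the 78 members tested there, 21 (26.9%) were called at a deposited q under 0.05, 9 higher and 12 lower in line b, whereas 5.00% of all 17876 tested loci (2.47% higher and 2.52% lower) and 4.79% of the tested loci at 5 FPKM or more in both lines were called. The members' share was above that of all tested loci at each level of expression. Members at 5 to 10 FPKM in the lower line were called in 8 of 47 cases (17.0%), where 4.04% of all tested loci of that level were, those at 10 to 20 FPKM in 5 of 17 (29.4% and 4.55%), and those at 20 FPKM or more in 8 of 14 (57.1% and 5.30%). Genes high in the lines but outside the limits were not set apart as a background, so the difference is not shown to be particular to the members. In line b, 6 of 8 tested diterpenoid genes, 3 of 4 pathogenesis-related genes and 1 of 9 ZIP genes were called higher and 0 lower. Other lists differed: of 4 WRKY genes 1 was called higher and 1 lower, and the leaf genes RCA and CAB2R were both called lower. No member was among the called genes of these lists. The 1 member not tested between the lines, Os02g0688800, is also the shortest, at 157 bases.

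Differences between the lines went both ways. Their median log2 ratio of line b over line a was −0.09, with quartiles of −0.39 and 0.27, and the median over loci at 5 FPKM or more in both lines was −0.01, with quartiles of −0.13 and 0.11. Line b was the higher at 36 members and the lower at 43, called or not, and 34 members lay within 1.2-fold. A difference of at least 2-fold was found at 8 members (10.1%), 3 higher and 5 lower in line b, and at 0.428% of the loci at that level. The errors implied by the deposited statistic were larger for members, with a median of 0.441 on the log2 scale, than for loci of that level, at 0.300.

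LAC24 differed most between the lines, 3.95-fold higher in line b (log2 ratio 1.98, implied error 0.316, q 0.000253 in the authors' deposited table). ABCG48 was 2.31-fold higher in line b (1.21, implied error 0.249, deposited q 0.000253). Os04g0288100 was 2.10-fold higher, with 19.6 FPKM in line b and 9.33 in line a (deposited log2 ratio 1.07, q 0.000253). Of the 12 named members, LAC24, ABCG48 and ABCG45 were called higher in line b, ASMT1 was called lower there (log2 ratio −0.34, deposited q 0.0140), and 8 were not called.

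Lower in line b by the widest margins were 3 members without a name. Os03g0629800 had 5.01 FPKM in line b and 13.1 in line a (deposited log2 ratio −1.38, implied error 0.525, q 0.000483). Os10g0515900 had 11.1 and 28.6 FPKM (−1.37, implied error 0.291, deposited q 0.000253), and Os05g0468800 10.1 and 23.5 (−1.21, implied error 0.511, deposited q 0.00171). Os03g0299700 and Os11g0451700 were also about 2-fold lower in line b, at deposited log2 ratios of −1.05 and −1.03. With Os01g0187200, at 11.8 FPKM in line b and 6.28 in line a (0.91, deposited q 0.00558), and Os03g0693700 (−0.82, deposited q 0.000253), these complete the 10 widest called differences. With p computed from the errors implied by the statistic, 4 of the 21 calls remained, and 0.168% of all tested loci were called: LAC24, ABCG48, Os10g0515900 and Os03g0299700.

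**Figure D4:**
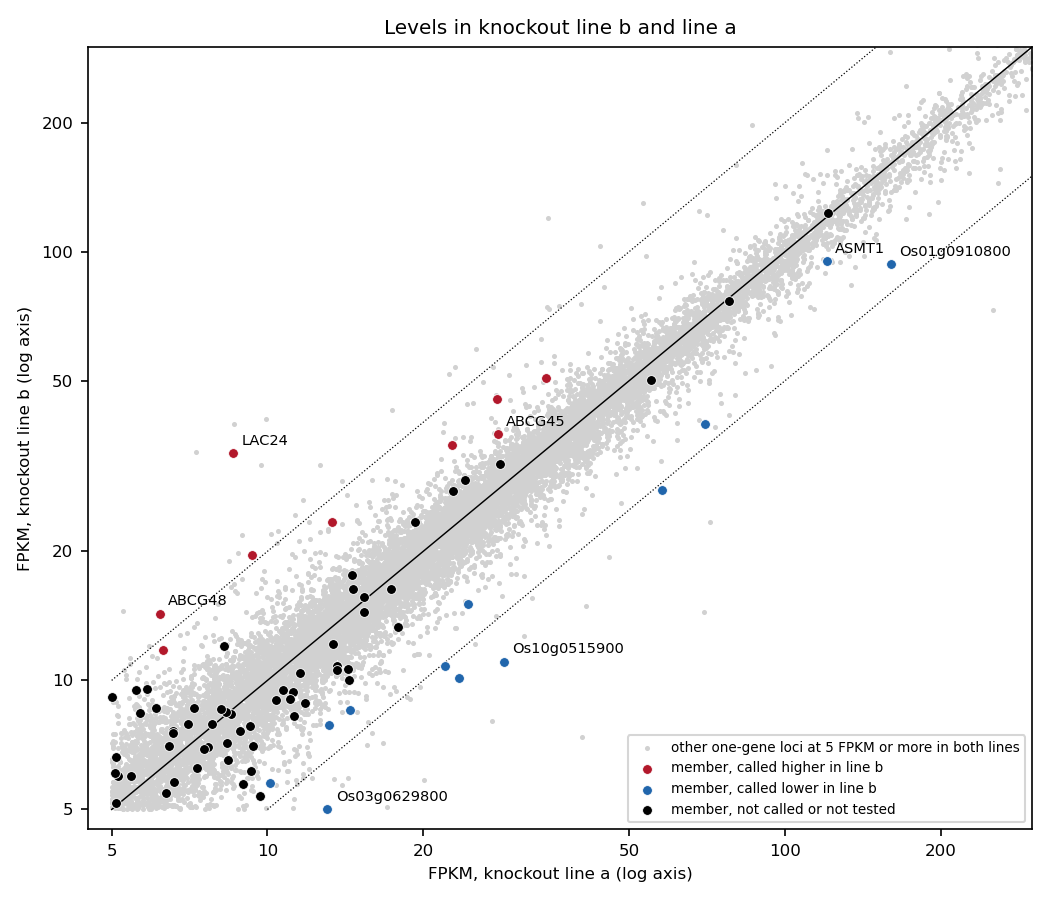
FPKM in knockout line b (vertical, log axis) against line a (horizontal, log axis) for loci holding 1 gene at 5 FPKM or more in both lines; knockout-high loci are large points, red where called higher and blue where called lower in line b, and all others grey. The solid line marks equal values and the dotted lines 2-fold differences, and LAC24 (33.9 and 8.58 FPKM) lies farthest above among the knockout-high loci.

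Position on the chromosome was not used by the choice. Members lay on all 12 chromosomes, with 16 (20.3%) on chromosome 3, which holds 11.9% of loci with 1 gene, 11 (13.9%) on chromosome 4, which holds 8.85%, and 1 (1.27%) on chromosome 6, which holds 8.37%. Their merged loci were short, with a median of 1588 bases against 3291 over all loci holding 1 gene. Within 50 kb of another member lay 8 members, forming 4 pairs, and the next closest members were 110052 bases apart. Almost every locus with 1 gene (99.8%) has another such locus within 50 kb. That share reflects how densely all such loci lie and is no background for a set as small as the members. Whether members lie closer together than other sets of their size was not tested.

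Around all 4 pairs further genes had higher values in both lines than in either wild type. The genes immediately on either side of NAS2 and NAS1 did not, and those that did lay further out. NAS2 and NAS1 were 1777 bases apart, with Os03g0307100 at 36.6, 38.0, 44.1 and 50.2 FPKM in line b, line a, 12-day and 5-day wild type and Os03g0307333 at 1.23, 0.862, 3.84 and 2.35 on either side. Os03g0277500 (chromosome 3, 9418945 to 9419670; 8.84 FPKM in line b and 11.8 in line a) and Os03g0277700 (9425601 to 9426838; 15.7 and 15.4) lay 5930 bases apart and were at 0 in both wild types. Os03g0277600 between them had 62.5, 33.8, 1.76 and 3.67 FPKM and was not called over 12-day wild type in either line (deposited q 0.134), and Os03g0277300 beside them had 8.35, 11.9, 0.754 and 0.199 and was called higher in both lines over 12-day wild type. Those 4 genes had higher values in both lines than in either wild type, and 2 of them miss the wild-type limit.

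On chromosome 8, Os08g0136300 (2054222 to 2055830) had 35.3 FPKM in line b, 22.7 in line a, 0.163 in 12-day wild type and 0.311 in 5-day wild type, and Os08g0136700 (2063215 to 2064741) had 23.4, 13.3, 0.156 and 0. They lay 7384 bases apart. Both were higher in line b, at deposited log2 ratios of 0.64 (q 0.00337) and 0.81 (q 0.000703). Os08g0136500 between them had 10.8 FPKM in line b and 3.78 in line a with 0 in wild type, and Os08g0136800 beyond had 10.6, 5.29, 0.629 and 0, so line b was the higher at all 4. On chromosome 10, Os10g0451700 (16476146 to 16477079; 10.4, 11.5, 0.203 and 0 FPKM) and Os10g0452100 (16486346 to 16487160; 6.08, 5.08, 0 and 0) lay 9266 bases apart, with Os10g0451900 between them at 2.97 and 4.37 FPKM in line b and line a and 0 in wild type.

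**Figure D5:**
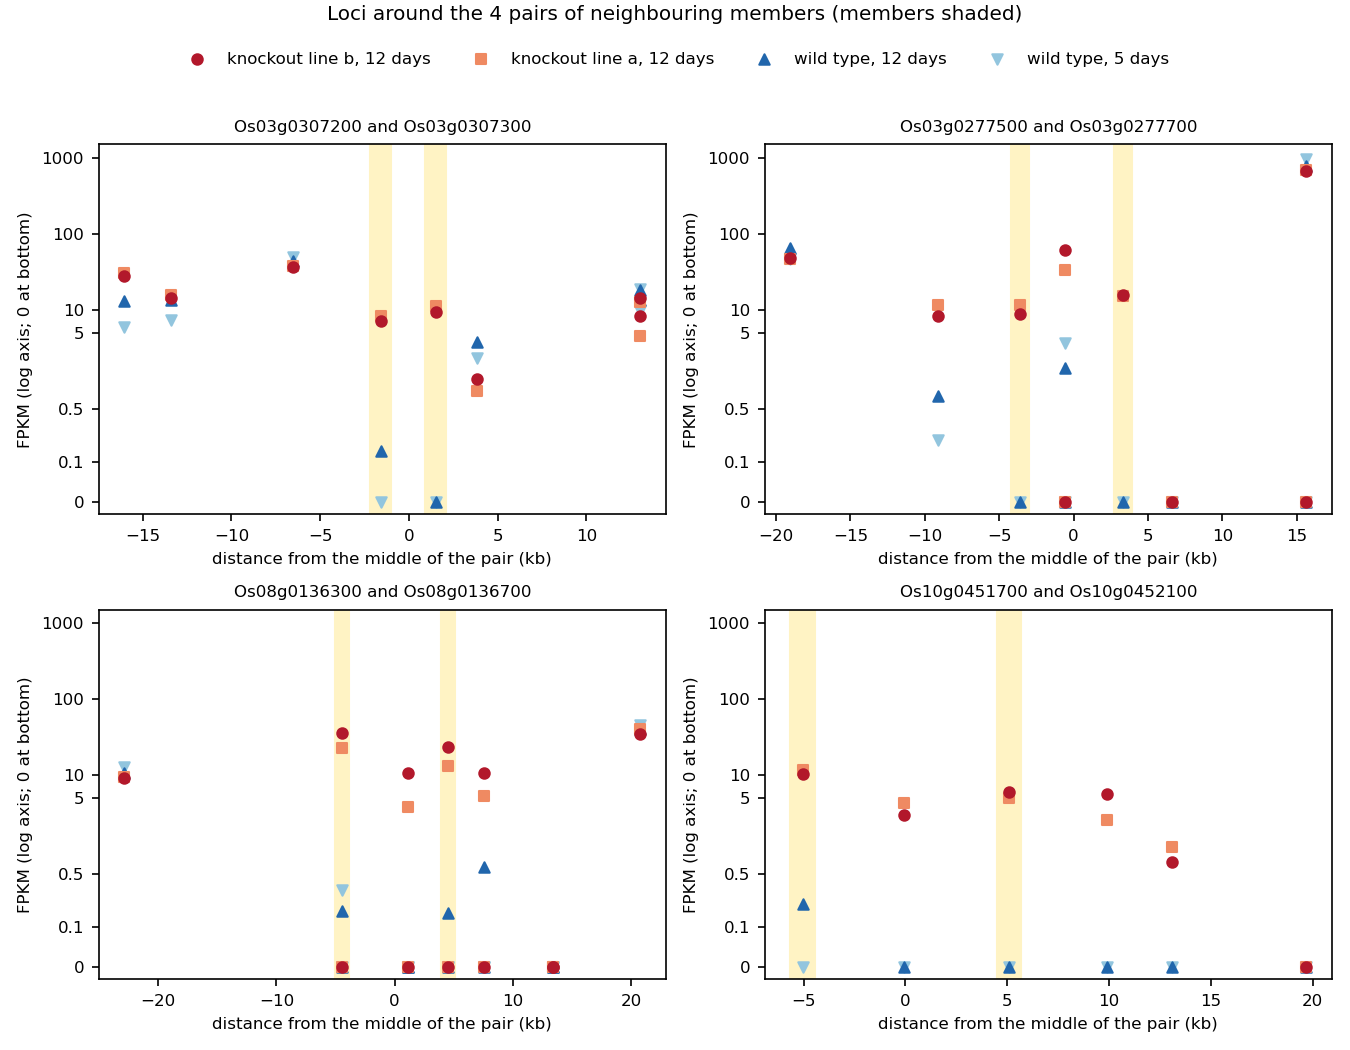
FPKM (log axis, 0 drawn at the bottom) of loci around the 4 pairs of neighbouring knockout-high loci, by distance in kb from the middle of each pair; shaded bands mark the pair. In the Os08g0136300 and Os08g0136700 stretch the red circles of line b lie above the orange squares of line a at each of the 4 transcribed loci within 10 kb, while the nearest loci beside NAS2 and NAS1 have wild-type triangles above 0.

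Taken over all members, flanking genes were called at about the share of other loci. The loci on either side of the members that were no member themselves numbered 153, of which 63 were tested in both lines. Of these 14 (22.2%) were called higher and 13 (20.6%) lower in both lines over 12-day wild type, where 18.8% and 21.6% of all tested loci holding 1 gene were. At 19 members the merged locus is shared with other entries, 29 in all, of which 11 were under 0.5 FPKM in every group. Os03g0830400, which shares the span of the member Os03g0830500 (8.25 and 11.3 FPKM in line b and line a), had 7.69, 10.2, 0.484 and 0.692 FPKM in line b, line a, 12-day and 5-day wild type. Use of strand is not stated, so reads of overlapping genes cannot be told apart. Like Os01g0910800, the identifiers Os04g0390800 and Os08g0433500 also name another entry of the same span, at 0 to 2.08 FPKM in every group.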

How the data were processed

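RNA of 12 samples was extracted with a plant column kit and sequenced by a service company, per the labels' protocols. Per the submitters' processing notes, reads went through Trimmomatic, FastQC, HISAT2, Cufflinks and Cuffdiff on build IRGSP-1.0; versions, annotation release, scaling and use of strand are not given in the sources used here. The authors' deposited table gives, for 37672 merged loci and 6 comparisons of the 4 groups, 1 FPKM value per group over 3 replicates, the log2 ratio, a score (the Cuffdiff test statistic), a p-value and a q-value. Replicate values and depth are therefore unknown. Deposited starts count from 0, and 1 was added.

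One FPKM per locus and group was taken, and members were the loci with 1 RAP identifier, 5 FPKM or more in both lines and under 0.5 FPKM in both wild types. A call is a deposited q under 0.05 (Benjamini-Hochberg over 108602 tests) with the test listed as done. The implied error is the log2 ratio divided by the deposited score. The calculation of p from it was run on data simulated with normal errors of that size. That checks the arithmetic and cannot show whether the deposited score is normally distributed. Median ratios over 12-day wild type used a pseudocount of 0.5 FPKM.

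The members and gene lists were chosen with earlier results of these data known, and symbols of the AOS, LOX, ZIP, ABCG, LAC, HCT, PM19L and ASMT genes were added after the table had been opened. Symbols were kept where RefSeq (assembly ASM3414082v1) has the name on the same chromosome, at the place set by neighbouring genes. That place ran from 3 kb before the start of the merged locus to its end. A kept start could thus lie more than 3 kb off, as for ZIP9 (8990 bases) and ABCG48 (5012 bases). The rule kept 59 of 89 symbols and dropped 4 of the 16 written for members. Of the genes for pathogenesis-related proteins, WRKY factors and serotonin synthesis this left 4, 4 and 1. Families by product description were not analysed here. Named in full are the 15 highest members by the lower line, members with a kept symbol, the 10 widest called differences between the lines, the closest pairs, and loci at the limits. Alternatives changed the limits, the call rule, the pseudocount and the distance. Python 3.11.15, pandas 2.3.3, numpy 2.4.6, scipy 1.17.1 and matplotlib 3.10.9 were used.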

Additional observations from a re-analysis of the deposited data

Results flagged for a closer look

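The knockout lines differed at 21 knockout-high loci by the authors' deposited test of line b against line a, which is the test of the difference between their effects, since both are set against the same wild type. Higher in line b, as log2 ratios in the authors' deposited table, were LAC24 (Os12g0258700) by 1.98, ABCG48 (Os11g0587600) by 1.21, Os04g0288100 by 1.07, Os01g0187200 by 0.91, Os08g0136700 by 0.81, Os04g0280500 by 0.71, Os08g0136300 by 0.64, Os01g0952800 by 0.56 and ABCG45 (Os08g0544400) by 0.43. The deposited log2 ratios of those lower in line b were −1.38 at Os03g0629800, −1.37 at Os10g0515900, −1.21 at Os05g0468800, −1.05 at Os03g0299700, −1.03 at Os11g0451700, −0.82 at Os03g0693700, −0.81 at Os12g0464400, −0.77 at Os01g0910800, −0.75 at Os09g0399800, −0.74 at Os03g0853200, −0.70 at Os04g0108600 and −0.34 at ASMT1 (Os09g0344500).

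Outside the loci that hold 1 gene, 14 merged loci met the same FPKM limits, 11 with no annotated gene and 3 with several. The locus of Os12g0555200 and Os12g0555300 was the highest, with 112 FPKM in line b, 24.4 in line a, 0.264 in 12-day wild type and 0 in 5-day wild type. The 11 without a gene had 5.60 to 14.1 FPKM in line b, 5.14 to 25.9 in line a, 0 to 0.484 in 12-day wild type and 0 to 0.336 in 5-day wild type.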

How the results depend on the processing

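The number of knockout-high loci followed the limits: 32 at 10 FPKM in both lines and 237 at 2 FPKM, 35 under 0.1 FPKM in both wild types and 160 under 1 FPKM, against 79 at the limits used. Counting every merged locus gave 93. With the wild-type limit on 12-day plants alone there were 104, and on 5-day plants alone 219, both chosen after seeing the data. Calls between the lines were 21 at a deposited q under 0.05, 17 under 0.01 (21.8% of the members tested, and 2.24% of all tested loci), 8 with at least 2-fold asked for (10.3% and 0.828%) and 4 on the implied error (5.13% and 0.168%). The median log2 ratio between the lines, −0.09 over all members, was 0.11 over the 14 at 20 FPKM or more in both lines; pseudocounts of 0.1 and 1 FPKM left it at −0.09. The median log2 ratio over 12-day wild type was 4.07 in line b and 4.24 in line a with a pseudocount of 0.5 FPKM, 5.88 and 6.12 with 0.1, and 3.24 and 3.42 with 1, and thus rests on the pseudocount. Members within 20, 50 and 100 kb of another numbered 8 each.

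No paired analysis was possible because the table has 1 value per group, and the same holds for leaving out a replicate. Motif counts in promoters were not run, since no promoter sequence was at hand.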

Other observations

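The 4 kept pathogenesis-related genes, none of them a member, stood in both lines above the members' medians of 9.49 FPKM in line b and 10.7 in line a. PBZ1 (a PR10 protein) had 330 FPKM in line b, 194 in line a, 4.48 in 12-day wild type and 1.64 in 5-day wild type. CHT1 (a chitinase) had 552, 438, 17.8 and 9.81 FPKM, CHT8 172, 153, 3.30 and 0.660, and CHT3 58.5, 46.0, 0.474 and 0.738. All 4 were called higher in both lines over 12-day wild type in the authors' deposited table, where 18.8% of tested loci holding 1 gene were. Over 5-day wild type CHT1 alone was called higher, in both lines, where 22.5% of tested loci holding 1 gene were. PBZ1 (deposited q 0.303), CHT3 and CHT8 were not called there. CHT3 misses the limits of the set by its 5-day value alone.

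The 4 kept WRKY transcription factors, of a family that binds defence promoters, were also called higher in both lines over 12-day wild type, and 3 of the 4, WRKY62 apart, over 5-day wild type. Of tested loci holding 1 gene, 18.8% were called higher in both lines over 12-day and 22.5% over 5-day wild type. WRKY71 had 39.1, 29.9, 4.87 and 5.26 FPKM in line b, line a, 12-day and 5-day wild type, WRKY62 24.58, 29.97, 1.41 and 1.97, and WRKY24 5.01, 5.47, 0.929 and 1.45. WRKY76 had 13.2 FPKM in line b and 23.1 in line a, and was called lower in line b (deposited log2 ratio −0.81). WRKY62 and WRKY24 also had lower values in line b and were not called, and WRKY71 was called higher there (deposited log2 ratio 0.38).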
